A study of Homo sapiens with 8 samples.

Results

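The response of VCaP cells to knockdown of DNA-PK was described from 2 of the 8 arrays of the series, chosen by their labels: 1 array of VCaP cells transfected with siRNA against DNAPK and 1 array of VCaP cells transfected with non-targeting siRNA (siNTC). Small interfering RNAs (siRNAs) are short duplexes that lower the transcript they match. The series holds the same pair of treatments in 4 human prostate cancer cell lines, VCaP, C4-2B, DU145 and PC3, with cells collected after 48 hours and 400 ng of total RNA labelled for each whole-transcript array. VCaP and DU145 were grown in DMEM, and C4-2B and PC3 in RPMI1640. There was 1 array per treatment in each line. A VCaP difference (DNAPK siRNA minus siNTC, in log2 units) therefore has no replicate check, and no SD or p-value is given for it. The pairs of the other 3 lines serve as a measure of spread. The labels do not say how many siRNA sequences were used, and each line stands for 1 culture per treatment.

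DNA-PK is the kinase that, with the Ku proteins, joins broken DNA ends, and its catalytic subunit is encoded by PRKDC. VCaP is a line of a prostate cancer that had spread to a vertebra, and it has a fusion of TMPRSS2 and ERG. HIF transcription factors raise glucose uptake, glycolysis and collagen hydroxylases when oxygen is low. ATF4, made when translation is limited through the integrated stress response, raises amino acid synthesis and transport. ATF6 and XBP1 raise chaperones when unfolded proteins fill the endoplasmic reticulum (ER), and SREBP factors raise sterol synthesis.

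PRKDC read 9.18 on the DNAPK siRNA array and 9.80 on the siNTC array of VCaP, in log2 units of the normalised signal. The difference of -0.62 left 65.0% of the control signal, and it ranked 1442 from the lowest. In the other lines PRKDC differences lay between -2.53 and -1.08, so the transcript was lower by less in VCaP than in any of them. ERG, the ETS factor activated by the fusion, read 8.65 with DNAPK siRNA and 8.57 with siNTC. On the 6 arrays of the other lines it read 2.68 to 3.56. KLK2, an androgen-driven kallikrein, read 11.56 with DNAPK siRNA and 11.37 with siNTC, while VIM, a mesenchymal filament gene, read 2.47 with DNAPK siRNA and 2.22 with siNTC. Of the labelled identity, KLK3 (PSA) stood low at 4.75 with DNAPK siRNA and 4.46 with siNTC, against 10.24 with DNAPK siRNA and 10.12 with siNTC in C4-2B. The epithelial keratin genes KRT8 (3.58 with DNAPK siRNA, a difference of -0.42) and KRT18 (4.37 with DNAPK siRNA and 4.51 with siNTC) also read low. Both keratin genes read low in the other lines too. Whether the low KLK3, KRT8 and KRT18 readings reflect the transcripts or the probe sets was not tested, so they are not taken as absence of expression. Of 23 immune cell markers on the array, 12 with DNAPK siRNA and 10 with siNTC lay at or below the filter level of 2.51, and the highest, CD68, read 4.60 with DNAPK siRNA and 4.61 with siNTC. Of 16 fibroblast and endothelial markers 7 lay at or below it on each VCaP array, with ENG highest at 7.51 with DNAPK siRNA and 7.27 with siNTC. The summed linear signals of the immune markers were 163 with DNAPK siRNA and 175 with siNTC, and those of the fibroblast and endothelial markers 314 with DNAPK siRNA and 282 with siNTC. Their part in the results was not tested.

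Gene expression differed more between the VCaP arrays than between those of any other line. Of 16796 genes above a filter on low signals (mean over 8 arrays above 2.51), 216 were higher by 1 or more (2-fold) with DNAPK siRNA (1.29%) and 406 were lower by 1 or more (2.42%). Fewer genes passed that level elsewhere. The genes at 1 or more were 89 in PC3 (0.53%), 51 in DU145 (0.304%) and 41 in C4-2B (0.244%), and those at -1 or less were 91 in PC3 (0.542%), 137 in DU145 (0.816%) and 57 in C4-2B (0.339%). Over genes, the SD of the differences was 0.462 in VCaP and 0.288 to 0.334 in the other lines. VCaP was also the widest among genes below the filter, with an SD of 0.396 in VCaP and 0.281 to 0.306 elsewhere. The wider spread in VCaP was thus present on both sides of the filter. With the genes split into 5 equal groups by signal, the share past 1 in VCaP was 3.57% in the dimmest and 5.12%, 4.53%, 3.13% and 2.17% in the brighter ones. The median difference over all genes was -0.00316, and 8340 genes (49.7%) lay above 0. In 119 genes the VCaP difference was at least 1 above the highest of the other 3 lines (0.709%), and in 224 at least 1 below the lowest (1.33%). The count above was 192 without DU145 and 181 without PC3 among the other lines.

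**Figure D1:**
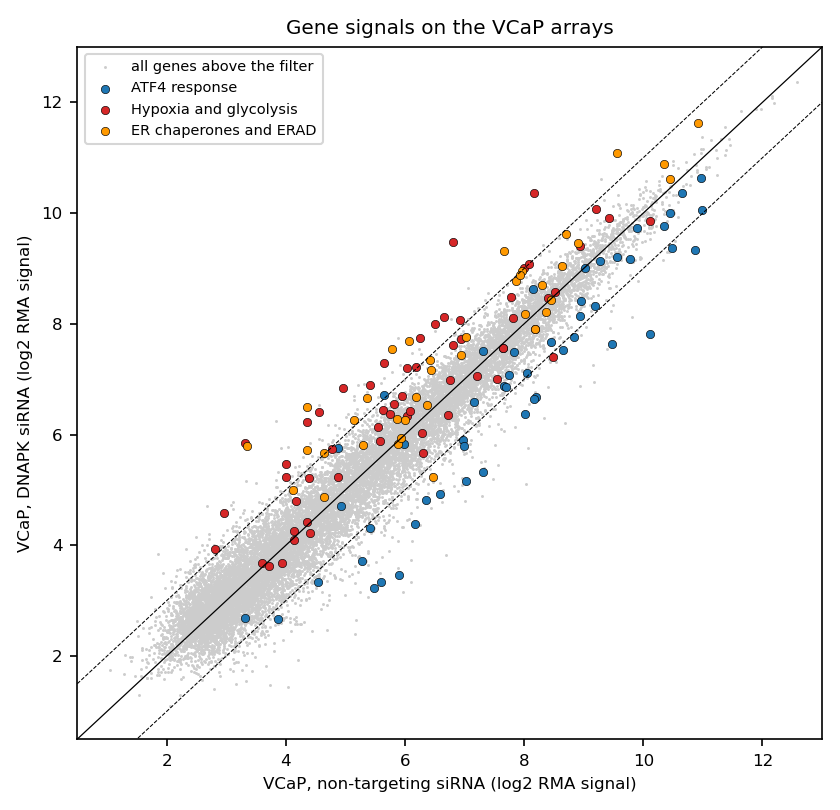
Log2 RMA signal of each gene with DNAPK siRNA (vertical axis) against siNTC (horizontal axis) in VCaP, 1 array each. The solid line marks equal signals and the dashed lines a difference of 1 either way. Hypoxia and glycolysis genes (red) and ER chaperone genes (orange) lie mostly above the solid line, and ATF4 response genes (blue) mostly below it.

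The following promoter sequences are shown because the lists with medians farthest from 0 hold known targets of factors with defined binding letters. Each is the 250 bases before a gene's start on the gene's own strand, from RefSeq on GRCh38.p14, and capitals mark matches to the letters named. For HIF the letters were ACGTG, in P4HA1 (chr10:73096867-73097116, minus strand), PLOD2 (chr3:146161185-146161434, minus strand) and LDHA (chr11:18394313-18394562, plus strand, 1 of 2 listed starts).
P4HA1: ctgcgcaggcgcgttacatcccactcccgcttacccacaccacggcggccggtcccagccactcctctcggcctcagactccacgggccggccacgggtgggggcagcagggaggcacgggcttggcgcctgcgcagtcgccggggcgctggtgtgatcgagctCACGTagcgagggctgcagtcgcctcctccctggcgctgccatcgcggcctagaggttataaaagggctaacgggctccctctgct
PLOD2: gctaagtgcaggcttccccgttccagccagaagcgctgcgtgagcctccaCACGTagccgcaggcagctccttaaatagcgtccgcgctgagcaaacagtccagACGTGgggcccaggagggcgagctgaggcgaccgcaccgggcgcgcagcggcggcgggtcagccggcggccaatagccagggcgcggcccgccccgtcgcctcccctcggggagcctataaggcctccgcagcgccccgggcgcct
LDHA: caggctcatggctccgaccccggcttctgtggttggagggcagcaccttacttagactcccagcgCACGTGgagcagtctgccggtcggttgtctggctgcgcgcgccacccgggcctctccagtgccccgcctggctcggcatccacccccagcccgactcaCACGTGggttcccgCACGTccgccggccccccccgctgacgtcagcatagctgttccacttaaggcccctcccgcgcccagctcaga
For the ER stress element the letters were CCAAT, 9 bases of any kind and CCACG, in HSPA5 (chr9:125241344-125241593, minus strand).
HSPA5: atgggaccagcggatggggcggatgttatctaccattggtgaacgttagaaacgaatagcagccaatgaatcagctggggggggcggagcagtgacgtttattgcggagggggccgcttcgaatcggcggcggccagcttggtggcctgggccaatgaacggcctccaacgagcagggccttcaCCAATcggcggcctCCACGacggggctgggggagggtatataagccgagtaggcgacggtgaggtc
For ATF4 they were TGATGNAA, the first letters of the longer element TGATGNAAT, in ASNS (chr7:97872409-97872658, minus strand, 1 of 2 listed starts) and CHAC1 (chr15:40953221-40953470, plus strand).
ASNS: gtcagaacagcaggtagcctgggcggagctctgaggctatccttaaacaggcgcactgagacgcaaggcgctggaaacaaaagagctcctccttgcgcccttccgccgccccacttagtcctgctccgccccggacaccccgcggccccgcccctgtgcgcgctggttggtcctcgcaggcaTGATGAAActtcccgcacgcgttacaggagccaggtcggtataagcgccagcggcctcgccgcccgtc
CHAC1: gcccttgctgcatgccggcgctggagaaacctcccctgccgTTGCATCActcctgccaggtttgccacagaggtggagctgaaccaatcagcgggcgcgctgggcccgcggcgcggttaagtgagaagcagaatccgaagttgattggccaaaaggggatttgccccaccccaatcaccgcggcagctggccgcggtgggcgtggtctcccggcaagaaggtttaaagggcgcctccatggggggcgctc
These 6 promoters were chosen because they hold a match. Matches on both strands count: CACGT is ACGTG on the other strand, CACGTG holds 2 overlapping matches, and the match in CHAC1 is on the other strand.

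The letters were counted over whole gene lists. ACGTG occurred in 31 of the 51 hypoxia and glycolysis genes with a promoter sequence (60.8%), against 27.0% of the 12449 genes above the filter that had one and 18.5% of all 35116 promoter windows. Among the 21 genes of that list past 1 in either direction, 13 held it (61.9%), close to the share of the list as a whole. TGATGNAA occurred in 11 of 43 ATF4 response genes (25.6%), against 2.52% of genes above the filter and 3.14% of all windows, and the longer TGATGNAAT in 4 of 43 (9.30%), against 0.707% and 0.888%. The ER stress element occurred in 8 of 33 ER genes (24.2%), against 0.120% and 0.0740%. The sterol element TCACNCCAC occurred in 1 of 25 sterol and fatty acid genes (4%), against 1.12% and 0.883%. These lists hold known targets, so their shares do not describe the VCaP response. Over all genes with a promoter sequence, ACGTG occurred in 44 of 144 that were 1 or more higher in VCaP (30.6%). It occurred in 53 of 248 that were 1 or more lower (21.4%). TGATGNAA, chosen after the values were seen, occurred in 4 of the 144 (2.78%) and in 18 of the 248 (7.26%). The longer TGATGNAAT occurred in 1 of the 144 (0.694%) and in 5 of the 248 (2.02%). A match describes the sequence only, and genes can have several starts.

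Hypoxia and glycolysis genes were higher in VCaP with DNAPK siRNA as a group. This list and those that follow were chosen with earlier results of these data known, so their counts are descriptions. Of 65 listed genes 58 passed the filter, 20 were higher by 1 or more and 1 was lower, against 1.29% and 2.42% of all genes. The median difference was 0.66 in VCaP, between -0.17 and 0.06 in the other lines, and -0.00316 over all genes in VCaP. In 40 of the 58 genes the VCaP difference lay above all 3 other lines, against 27.9% of all genes, and in 19 it lay above them by at least 1 (0.709% of all genes). In a bulk sample, fewer cells of a kind and less RNA per cell cannot be told apart.

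The steps of glycolysis were higher almost throughout. Of 22 genes of glucose uptake and glycolysis 21 lay above 0 (49.7% of all genes), 11 of them past 1 (1.29%). Their median difference was 0.93. SLC2A1, the glucose transporter GLUT1, read 8.07 with DNAPK siRNA and 6.92 with siNTC, a difference of 1.15. HK2, the hexokinase that traps glucose in the cell, read 6.84 with DNAPK siRNA and 4.97 with siNTC (1.87). The signals with DNAPK siRNA were the higher ones for both the entry step and the first phosphorylation. PFKFB3 and PFKFB4 make the activator of phosphofructokinase, and they read 6.23 and 6.40 with DNAPK siRNA against 4.35 and 4.56 with siNTC (1.88 and 1.83). Of the phosphofructokinase subunits themselves, PFKP had a difference of 1.49 and PFKL of 1.17, while the muscle form PFKM had -0.37 and was the only gene of the 22 below 0. Lower in the pathway, the aldolase gene ALDOC had 1.47 and ALDOA 0.81, PGK1 had 1.03 and PGAM1 0.83, ENO1 had 1.01, and PKM had 0.86. LDHA, which turns pyruvate into lactate, read 7.30 with DNAPK siRNA and 5.66 with siNTC (1.64). PDK1, a kinase that inhibits pyruvate dehydrogenase, read 9.08 with DNAPK siRNA and 8.08 with siNTC. GAPDH (0.30), TPI1 (0.35) and HK1 (0.31) differed least among the named enzymes.

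The collagen hydroxylases, which use oxygen to modify procollagen in the ER and are HIF targets, included the gene with the highest difference. PLOD2, a lysyl hydroxylase, read 9.47 with DNAPK siRNA and 6.81 with siNTC. Its difference of 2.66, or 6.32-fold, was the highest of the 16796 genes, and in the other lines it lay between -0.24 and -0.05. P4HA1, a prolyl hydroxylase, read 10.36 with DNAPK siRNA and 8.17 with siNTC (2.19), against -0.26 to 0.30 in the other lines. PLOD1 had 1.47, whereas P4HA2 was close to equal at 3.62 with DNAPK siRNA and 3.72 with siNTC (-0.10). MIR210HG, the host transcript of the hypoxia-induced miR-210, read 5.85 with DNAPK siRNA and 3.32 with siNTC (2.54). The separate probe set for the microRNA gene MIR210 went the other way, at 6.18 with DNAPK siRNA and 6.86 with siNTC (-0.68). Of the other targets, FAM162A had 1.48, PPFIA4 1.61, the collagen crosslinking enzyme LOX 1.23 and the carbonic anhydrase gene CA12 0.79. Several standard targets were not higher by that much: the angiogenic factor VEGFA had 0.08, ADM 0.13, ANGPTL4 0.07 and DDIT4 -0.09, and STC2, which is also a target of ATF4, was the gene of the list that was lower, at 7.41 with DNAPK siRNA and 8.48 with siNTC (-1.07).

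The HIF system itself was mixed. Its 13 genes had a median of 0.23, with 7 above 0 (49.7% of all genes). HIF1A, the oxygen-regulated subunit, read 9.87 with DNAPK siRNA and 10.11 with siNTC (-0.25), but its further probe set had 0.65, so its direction is not settled. Its partner ARNT had -0.53. EPAS1, which encodes HIF-2alpha, had 0.73. The oxygen-sensing hydroxylases that HIF induces as its own brakes stood higher: EGLN3 read 3.94 with DNAPK siRNA and 2.82 with siNTC (1.12), and EGLN1 had 0.82. ANKRD37, another HIF target, had 0.95. KDM3A, a histone demethylase gene induced by HIF, had the widest difference of this subgroup at 7.74 with DNAPK siRNA and 6.26 with siNTC (1.48).

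ER chaperone genes were higher in VCaP with DNAPK siRNA. Of 40 listed genes of ER folding and ER-associated degradation (ERAD) 38 passed the filter, 33 lay above 0 (49.7% of all genes), 10 were higher by 1 or more (1.29%) and 1 was lower (2.42%). The median was 0.64, against -0.15 to 0.13 in the other lines. In 32 genes the VCaP difference lay above all 3 other lines, against 27.9% of all genes. The 20 chaperones and folding enzymes had a median of 0.92, with 8 past 1. HSPA5 (BiP), the main ER chaperone, read 11.09 with DNAPK siRNA and 9.56 with siNTC, a difference of 1.54 or 2.90-fold, against -0.18 to 0.04 in the other lines. MANF, secreted under ER stress, read 6.50 with DNAPK siRNA and 4.36 with siNTC (2.14). DNAPK siRNA gave the higher reading in both. The disulfide isomerase gene PDIA3 read 5.80 with DNAPK siRNA and 3.35 with siNTC (2.45), and PDIA4 read 9.32 with DNAPK siRNA and 7.67 with siNTC (1.65). The BiP partners DNAJB11 and DNAJB9 had 1.62 and 1.03, SDF2L1 had 1.37, CRELD2 1.11, HYOU1 0.99 and calreticulin (CALR) 0.72. ERO1A, which reoxidises the isomerases, had -0.27 and the calnexin gene CANX 0.17.

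The sensors of the unfolded protein response and the factor XBP1 were mixed. XBP1 read 8.43 with DNAPK siRNA and 8.45 with siNTC (-0.02), ATF6 had -0.16, and ERN1, which encodes the sensor IRE1, read 5.23 with DNAPK siRNA and 6.47 with siNTC (-1.24), the lowest of the list. EIF2AK3, which encodes the sensor PERK and belongs to the ATF4 list, read 6.72 with DNAPK siRNA and 5.65 with siNTC (1.07). SEC24D, a cargo adaptor of the vesicles that leave the ER, read 7.54 with DNAPK siRNA and 5.78 with siNTC (1.76). CREB3L2, a factor that drives secretory genes, had 1.30. The translocon genes SEC61A1, SEC61B and SSR1 had 0.92, 0.73 and 0.94. The 18 sensors, ERAD and translocon genes together had a median of 0.45, with 15 above 0 (49.7% of all genes).

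**Figure D2:**
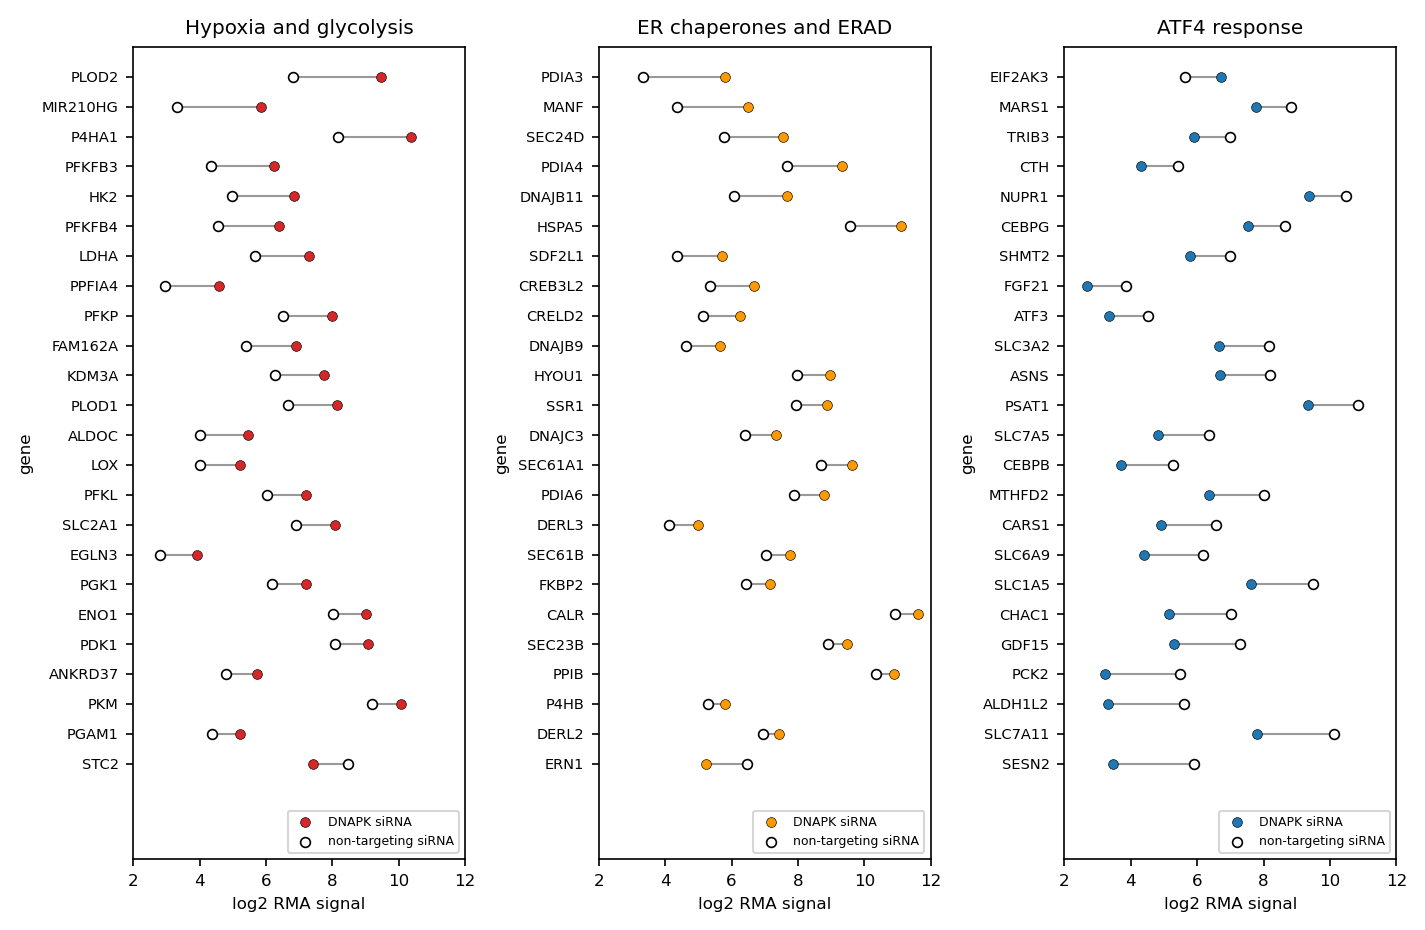
Log2 RMA signal (horizontal axis) of the 24 genes with the largest absolute VCaP difference in each of 3 lists, with filled points for the DNAPK siRNA array and open points for the siNTC array. The filled point lies to the right for the hypoxia and ER genes except STC2 and ERN1, and to the left for the ATF4 genes except EIF2AK3.

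ATF4 response genes were lower in VCaP with DNAPK siRNA. Of 54 listed genes 51 passed the filter, 23 were lower by 1 or more against 2.42% of all genes, 1 was higher, and 47 lay below 0. The median was -0.87, while C4-2B had -0.29, PC3 -0.03 and DU145 0.04. In 39 genes the VCaP difference lay below all 3 other lines, against 34.9% of all genes, and in 12 it lay below them by at least 1 (1.33% of all genes). ATF4 itself, whose protein is set mostly by translation, read 9.14 with DNAPK siRNA and 9.27 with siNTC (-0.13).

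Amino acid transporters had the lowest median of the 4 roles in the list, -1.51 over 9 genes, and all 9 lay below 0. SLC7A11, the cystine importer, read 7.82 with DNAPK siRNA and 10.12 with siNTC (-2.30, or 4.93-fold lower), and it was below 0 in the other lines too, between -1.04 and -0.45. Its partner chain SLC3A2 read 6.65 with DNAPK siRNA and 8.16 with siNTC (-1.51). The transcripts of both chains of the cystine transporter were thus lower, and the protein was not measured. SLC1A5, a glutamine carrier, had -1.84, the glycine carrier SLC6A9 -1.79 and the leucine carrier SLC7A5 -1.53. Of 14 genes of amino acid and one-carbon synthesis 7 were lower by 1 or more (2.42% of all genes), with a median of -1.03. ASNS, asparagine synthetase, read 6.68 with DNAPK siRNA and 8.20 with siNTC (-1.52). PSAT1, of serine synthesis, read 9.33 with DNAPK siRNA and 10.86 with siNTC (-1.53), and PHGDH before it in the pathway had -0.94. The mitochondrial folate enzymes MTHFD2, SHMT2 and ALDH1L2 had -1.64, -1.19 and -2.27, and the mitochondrial PEP carboxykinase PCK2 had -2.25. ALDH18A1, of proline synthesis, was the exception at 0.48.

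Of 15 regulators in the list 9 were lower by 1 or more, against 2.42% of all genes. SESN2, a leucine sensor that restrains mTORC1, read 3.46 with DNAPK siRNA and 5.90 with siNTC (-2.44), the lowest of the list. CHAC1, which degrades glutathione, read 5.16 with DNAPK siRNA and 7.03 with siNTC (-1.87), and the stress cytokine GDF15 read 5.32 with DNAPK siRNA and 7.30 with siNTC (-1.99). In GDF15 the difference reached 1.37 in another line, so the lines did not share a direction. CHAC1 was below 0 in each other line, at -1.31 in C4-2B, -0.12 in PC3 and -0.03 in DU145. SESN2 had -0.87 in C4-2B, but 0.18 in DU145 and 0.32 in PC3. The transcription factor genes CEBPB, ATF3 and CEBPG had -1.58, -1.20 and -1.13, and the pseudokinase TRIB3 -1.08. DDIT3 (CHOP), a factor that ATF4 induces in ER stress, read 5.75 with DNAPK siRNA and 4.88 with siNTC and so was higher, by 0.88. The 13 genes of tRNA charging, 12 synthetases and the tRNA exporter XPOT, all lay below 0 with a median of -0.58, and CARS1 (-1.66) and MARS1 (-1.07) were past 1.

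Sterol and fatty acid synthesis genes were higher by smaller amounts. Of 37 listed genes 28 passed the filter, 23 lay above 0 (49.7% of all genes) and 2 were higher by 1 or more (1.29%). Their median was 0.48, against -0.14 to 0.07 in the other lines. In 19 genes the VCaP difference lay above all 3 other lines, against 27.9% of all genes. INSIG1, a brake on SREBP, read 9.42 with DNAPK siRNA and 8.32 with siNTC (1.09). STARD4, a sterol carrier, read 5.48 with DNAPK siRNA and 4.40 with siNTC (1.07). The enzyme genes HMGCS1, NSDHL, FDPS and MSMO1 had 0.96, 0.90, 0.79 and 0.76. All 7 fatty acid genes lay above 0, among them FADS2 at 0.99, ACLY at 0.95 and FASN at 0.51. The regulators differed less, with SREBF1 at 0.46 and SREBF2 at -0.25.

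In the hypoxia, ER and ATF4 lists, VCaP stood further from the other lines on the siNTC array than on the DNAPK siRNA array. The median hypoxia gene of VCaP stood above the mean of the other 3 lines with DNAPK siRNA (by 0.21) and below it with siNTC (-0.53). On the DNAPK siRNA arrays 12 of the 58 genes were lowest in VCaP among the 4 lines (30.2% of all genes), and on the siNTC arrays 29 were (28.0% of all genes). ER genes stood at 0.19 with DNAPK siRNA and at -0.65 with siNTC relative to the other lines, and of 38 genes 6 with DNAPK siRNA and 21 with siNTC were lowest in VCaP. ATF4 genes stood at -0.14 with DNAPK siRNA and at 0.65 with siNTC, and of 51 genes 7 with DNAPK siRNA (26.6% of all genes) and 26 with siNTC (28.2% of all genes) were highest in VCaP. Sterol genes stood at -0.14 with DNAPK siRNA and -0.53 with siNTC, below the mean of the other 3 lines on both arrays. Their median signal in VCaP was above that of PC3, at 6.92 against 6.67 with DNAPK siRNA and 6.73 against 6.50 with siNTC. With 1 siNTC array, the state of that culture and the effect of the siRNA cannot be told apart in these differences.

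**Figure D3:**
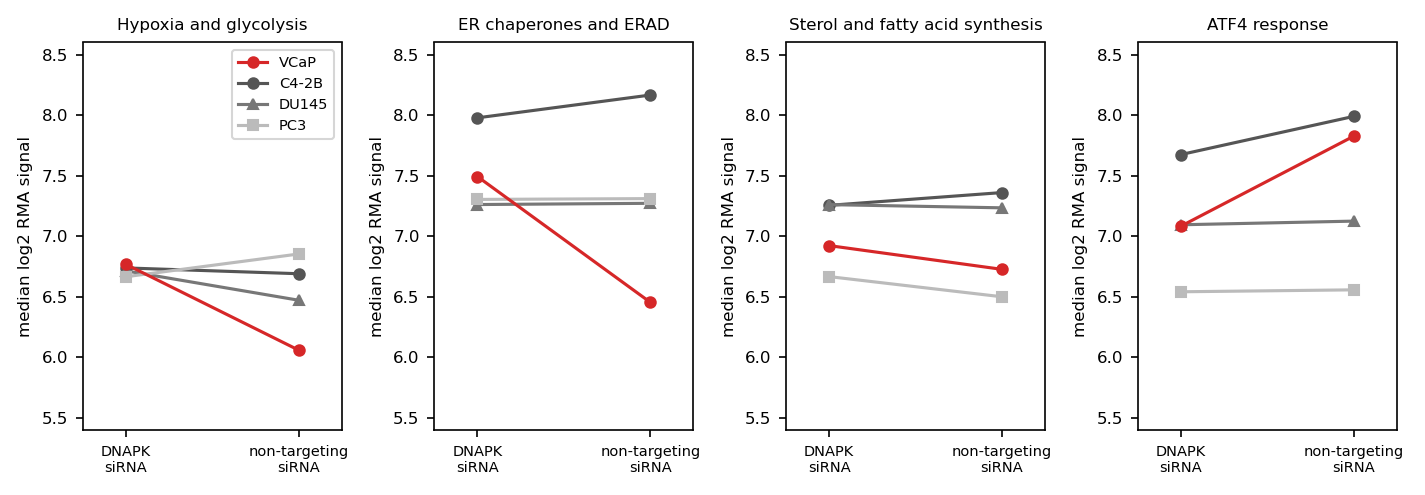
Median log2 RMA signal of 4 gene lists (vertical axis) on the DNAPK siRNA array (left) and the siNTC array (right) of each line, 1 array per point. VCaP (red) has medians of 6.77 with DNAPK siRNA and 6.06 with siNTC for hypoxia genes and of 7.49 with DNAPK siRNA and 6.45 with siNTC for ER genes, and the siNTC values lie below all 3 other lines. Its ATF4 medians are 7.08 with DNAPK siRNA and 7.83 with siNTC.

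The genes with the widest differences included many members of these lists. Because the lists were chosen with earlier results of these data known, the shares below are descriptions only. Of the 100 genes with the highest differences, 14 were hypoxia and glycolysis genes and 8 ER genes, 24.1% and 21.1% of those lists, and 0 were ATF4 genes. These lists make up 0.345%, 0.226% and 0.304% of all genes above the filter. Of the 100 with the lowest, 13 were ATF4 genes, 25.5% of that list, and 0 were hypoxia or ER genes. Among the 15 highest outside the lists were STMN3, a stathmin, at 6.54 with DNAPK siRNA and 4.55 with siNTC (1.99), and MKNK2, a kinase of the translation factor eIF4E, at 7.74 with DNAPK siRNA and 5.88 with siNTC (1.86). TRPV6, a calcium channel, read 4.71 with DNAPK siRNA and 2.67 with siNTC (2.04), and its siNTC signal was near the filter level. MT1L, a transcribed pseudogene of the metallothionein family, read 3.84 with DNAPK siRNA and 1.85 with siNTC (1.98). The siNTC signal of MT1L lay below the filter level, so the size of its difference is not settled. PRRT2, a presynaptic protein, read 5.16 with DNAPK siRNA and 3.33 with siNTC (1.83). The anterior gradient gene AGR2, an ER isomerase of secretory epithelium, was among the 10 genes farthest above the other lines, at 6.76 with DNAPK siRNA and 5.37 with siNTC (1.40) against -0.67 to -0.42.

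The lowest difference of all genes was that of LRRC31, at 5.10 with DNAPK siRNA and 8.03 with siNTC (-2.93). MYBPC1, a myosin-binding protein and a member of the androgen-induced list, read 3.82 with DNAPK siRNA and 6.70 with siNTC (-2.88). BEST1, a chloride channel, read 3.16 with DNAPK siRNA and 5.97 with siNTC (-2.81). In these 3 genes the DNAPK siRNA signal was the lower one in VCaP, and the other lines lay between -0.66 and 0.26. PMAIP1 (NOXA), a pro-apoptotic gene that p53 and ATF4 both can induce, read 3.34 with DNAPK siRNA and 6.10 with siNTC (-2.76). SLPI, a secreted protease inhibitor, read 6.21 with DNAPK siRNA and 8.69 with siNTC (-2.48), and it was below 0 in the other lines as well, between -2.03 and -0.36. DRAM1, a lysosomal autophagy gene, had -2.37, the phosphatase gene CDC14A -2.40 and the chemokine gene CXCL11 -2.22, the last read at 6.96 with DNAPK siRNA and 9.17 with siNTC. FOLH1B, at 5.75 with DNAPK siRNA and 8.06 with siNTC (-2.31), is a near-identical copy of FOLH1, and probes may not separate the copies. TCEAL3 had -2.29, but -1.23 when all its probe sets were averaged. MIR4288, MIR3671, RN5S70 and MKX completed the 15 lowest, between -2.75 and -2.31. The DNAPK siRNA signals of TCEAL3, MIR4288 and RN5S70 lay below the filter level, so the sizes of their differences are not settled.

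**Figure D4:**
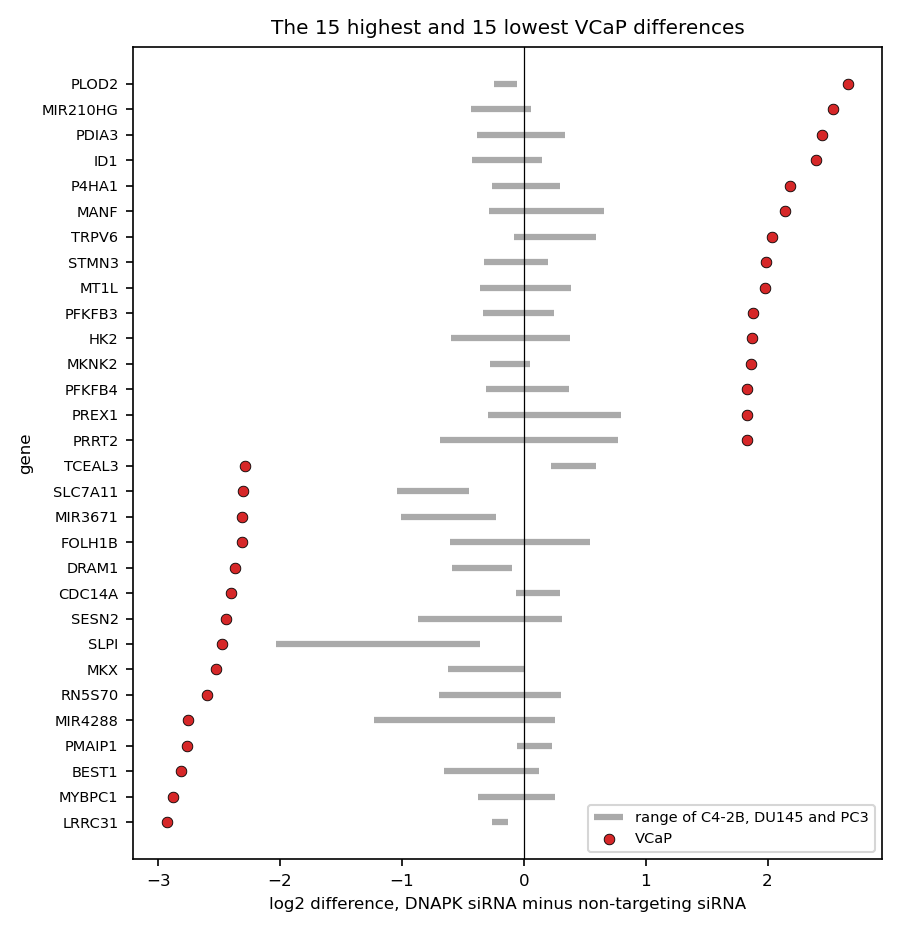
Log2 difference (horizontal axis, DNAPK siRNA minus siNTC) of the 15 genes highest and the 15 lowest in VCaP (red points), with the range of the same difference in C4-2B, DU145 and PC3 as grey bars. Every red point lies outside its bar; SLPI, whose bar reaches -2.03, comes closest to it.

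Androgen-regulated genes were lower in VCaP by small amounts in most members. Of 29 measured genes 22 lay below 0, 4 were lower by 1 or more (2.42% of all genes) and 0 higher (1.29%), and the median was -0.19, against -0.11 to 0.01 in the other lines. The 26 androgen-induced members had a median of -0.23 in VCaP and one nearly as low, -0.20, in C4-2B. The 4 were MYBPC1, OPRK1, which androgen represses, at 5.50 with DNAPK siRNA and 7.27 with siNTC (-1.77), STEAP4, a metalloreductase gene, at 2.34 with DNAPK siRNA (below the filter level) and 3.40 with siNTC (-1.05), and HERC3, a ubiquitin ligase gene, at 6.21 with DNAPK siRNA and 7.24 with siNTC (-1.03). STEAP4 was below 0 in the other lines too, between -1.24 and -0.46, so its VCaP difference lay within their range. The kallikrein genes and TMPRSS2 were not among the 4. KLK2 had 0.19, KLK3 had 0.29 and TMPRSS2, at 8.68 with DNAPK siRNA and 9.03 with siNTC, had -0.36. Of the lineage factors, FOXA1 read 9.19 with DNAPK siRNA and 9.59 with siNTC (-0.41), HOXB13 8.03 with DNAPK siRNA and 7.45 with siNTC (0.58), ERG had 0.07 and MYC 0.11. NR3C1, the glucocorticoid receptor gene, read 4.45 with DNAPK siRNA and 5.86 with siNTC (-1.42), the only one of 14 lineage and ETS factors past 1.

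Wnt pathway lists had medians between -0.13 and 0.05, with single members past 1. The medians were -0.00183 for 36 ligands and receptors, 0.01 for 34 beta-catenin components, -0.13 for 13 antagonists, -0.04 for 35 target genes and 0.05 for 34 non-canonical components. Over the 152 entries of these 5 lists, 7 were higher by 1 or more and 1 lower, against 1.29% and 2.42% of all genes. Among receptors FZD6 read 8.56 with DNAPK siRNA and 7.39 with siNTC (1.17), and among ligands WNT2 read 6.32 with DNAPK siRNA and 7.22 with siNTC (-0.90). BCL9L, a coactivator of beta-catenin, read 6.62 with DNAPK siRNA and 5.14 with siNTC (1.48), and CTNNB1, the beta-catenin gene, 8.22 with DNAPK siRNA and 7.61 with siNTC (0.61). Both lay above the other lines, where BCL9L had 0.26 to 0.30 and CTNNB1 -0.23 to 0.05. The non-canonical effectors CAMK2G, RAC2 and PLCB3 had 1.21, 1.15 and 1.03, and the antagonist gene TPBG had 1.01 at signals of 3.16 with DNAPK siRNA and 2.15 with siNTC. The siNTC signals of RAC2 and TPBG lay below the filter level. SNAI2, a target gene and a factor of epithelial-mesenchymal transition, read 2.93 with DNAPK siRNA and 4.01 with siNTC (-1.09).

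Of the migration genes, PREX1, an exchange factor that activates Rac, read 5.76 with DNAPK siRNA and 3.93 with siNTC (1.83), outside the range of the other lines, -0.29 to 0.80. The kinase gene ROCK2 read 7.34 with DNAPK siRNA and 7.96 with siNTC (-0.62), and the integrin gene ITGB4 3.14 with DNAPK siRNA and 2.85 with siNTC (0.29). VAV3 lay below the filter, at 2.75 with DNAPK siRNA and 3.56 with siNTC. The 16 genes of the list had a median of -0.25, and PREX1 was the one past 1, against 1.29% of all genes higher.

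DNA repair and cell cycle genes had no member past 1 apart from CCNE2, against 1.29% of all genes higher and 2.42% lower. Among 12 genes of DNA-PK and end joining, PRKDC included, the median was 0.00873. The Ku genes XRCC5 and XRCC6, whose products bind DNA ends with the DNA-PK catalytic subunit, had 0.41 and 0.21, and APLF, an end-joining accessory gene, had -0.79. Homologous recombination and Fanconi genes had a median of -0.08 over 25 genes, with RAD52 at -0.66 and RAD50 at -0.59. Mitosis genes lay below 0 in 39 of 48, against 8456 of all 16796 genes. Their median of -0.21 was within the range of the other lines, -0.29 to 0.41. DNA replication genes had a median of 0.12 over 49, and CCNE2, the S-phase cyclin E2 gene, read 8.44 with DNAPK siRNA and 7.34 with siNTC (1.10).

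The ID genes, inhibitors of bHLH transcription factors and standard targets of BMP signalling, were all higher. ID1 read 6.24 with DNAPK siRNA and 3.84 with siNTC (2.40), and it ranked among the 15 highest. ID2 read 5.93 with DNAPK siRNA and 4.56 with siNTC (1.37), ID3 4.74 with DNAPK siRNA and 3.08 with siNTC (1.66), and ID4 8.65 with DNAPK siRNA and 7.06 with siNTC (1.59). In each of the 4 genes the DNAPK siRNA signal was the higher one. They were the 4 of 32 TGF-beta and BMP genes higher by 1 or more, against 1.29% of all genes. The median of that list was -0.10.

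Other stress, immune and lineage lists had medians between -0.19 and 0.23 in VCaP. Of 25 p53 target genes 10 lay above 0, and 3 were lower by 1 or more, against 2.42% of all genes: PMAIP1, the death receptor gene FAS at 7.44 with DNAPK siRNA and 8.54 with siNTC (-1.11), and SFN at 3.25 with DNAPK siRNA and 4.35 with siNTC (-1.10). Of 15 neuroendocrine markers 6 lay above 0, the highest at 0.63, and 3 were lower by 1 or more, against 2.42% of all genes. The list median of -0.13 turned positive under other filters (0.12 with none and 0.275 with a 50th percentile filter). The 3 were the secretory granule genes CHGB, CHGA and SCG5, which had -1.20, -1.18 and -1.03, with siNTC signals of 5.65, 5.44 and 4.86. Of the matrix genes TNC read 5.52 with DNAPK siRNA and 7.34 with siNTC (-1.81), and THBS1 9.30 with DNAPK siRNA and 10.44 with siNTC (-1.14). CLDN1, a tight junction gene, had -1.62 and was the one of 26 epithelial genes past 1. In the interferon list LGALS3BP (-1.28) and IFIT2 (1.12, its siNTC signal below the filter level) went opposite ways. Respiratory chain genes lay above 0 in 27 of 39 (49.7% of all genes), with a median of 0.17 and 0 past 1. MYC and ribosome biogenesis genes had 0.12 over 26 with 0 past 1.

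**Figure D5:**
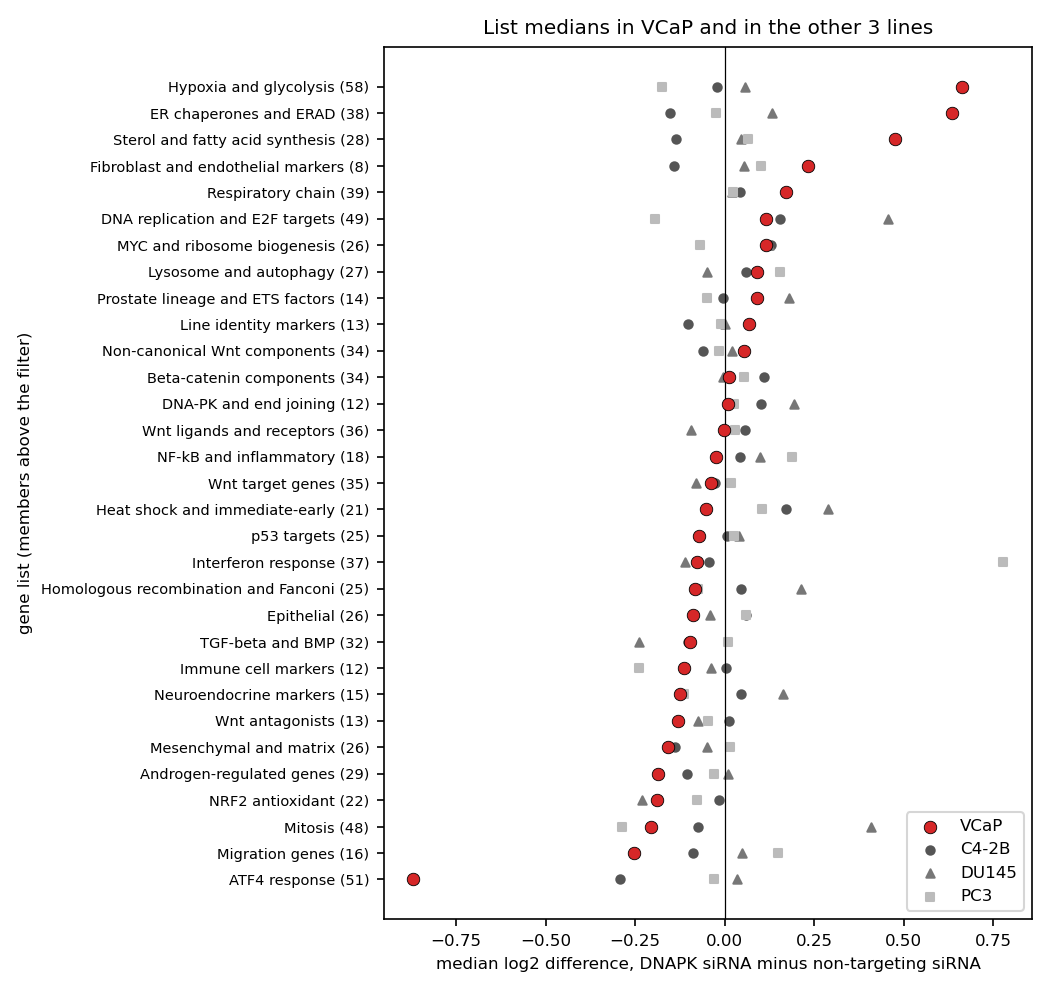
Median log2 difference (horizontal axis, DNAPK siRNA minus siNTC) of 31 gene lists, with the number of members above the filter, for VCaP (red) and the other 3 lines (grey). The VCaP medians of hypoxia (0.66), ER (0.64) and sterol genes (0.48) lie to the right of the other lines and that of ATF4 genes (-0.87) to the left.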

How the data were processed

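Biotin-labelled cDNA was hybridised to 1 whole-transcript array per treatment and line, per the labels' protocols. The authors deposited 1 log2 value per probe set and array, and the submitters' processing notes list RMA (background correction, quantile normalisation over the arrays and probe summary) and oligo, with versions not given in the sources used here. RMA makes the arrays' distributions alike, so a difference is relative to the bulk of transcripts. Array medians lay between 2.94 and 2.99. Detection calls and scan batches were not used here, and the number of arrays limits the precision.

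Of 53617 probe sets, 23871 had 1 gene symbol, 1842 several and 27904 none here. Symbols were updated through Entrez identifiers and the RefSeq gene table of GRCh38.p14 for 22569 of them. Each of 22395 genes was read from its brightest probe set (mean of 8 arrays), and the 16796 genes brighter than the 25th percentile (2.51) were kept. Past 1 means a log2 difference of 1 or more, or of -1 or less. A standing level is a VCaP signal minus the mean of the other 3 lines. No p-value was computed. Counting was tested on simulated data with known differences.

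Alternatives were median centring, cyclic loess (limma 3.58.1 in R 4.3.3), other filters and thresholds, the mean of a gene's probe sets, and leaving out each other line. Tables were made with pandas 2.3.3. The members and the 31 gene lists were chosen with earlier results of these data known, and the letters TGATGNAA after seeing the values.

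The named-gene rule takes PRKDC, the 15 highest and 15 lowest VCaP differences, the 10 farthest above and below the other lines, 4 members of each list with the largest absolute difference (and up to 4 per role in 5 lists), 4 migration genes and 6 lineage factors. Other genes were named after their values were seen. Some listed genes are not reported here.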

Additional observations from a re-analysis of the deposited data

Results flagged for a closer look

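In PLOD2 the VCaP difference was 2.66, while each of the other 3 lines lay below 0. TCEAL3 had -2.29 in VCaP and values above 0 in each other line. ITGB4 had 0.29 in VCaP, at signals near the filter level, and values below 0 in each other line. Of the list medians, those of p53 targets (-0.0724), NF-kB and inflammatory genes (-0.0254) and heat shock and immediate-early genes (-0.0535) were below 0 in VCaP and above 0 in the other 3 lines. All 3 lay close to 0, and the NF-kB median changed sign in VCaP under 2 of 6 processing alternatives, reaching 0.173. With 1 array per treatment in a line, none of these 6 differences between lines was tested.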

How the results depend on the processing

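No paired analysis was possible because the labels carry no replicate numbers and each line has 1 array per treatment. The medians of the hypoxia (0.63 to 0.71), ER (0.62 to 0.64) and ATF4 lists (-0.88 to -0.85) kept their direction under 6 alternatives of scaling, filter and probe set. PRKDC did so too (-0.63 to -0.62). Of 88 named genes past 1, 86 stayed past 1 in each alternative that kept the gene. All alternatives reuse the same VCaP arrays, and a filter leaves a gene's own difference unchanged. This stability therefore does not measure reproducibility. Scaling moved the median of all genes by less than 0.1. Genes past 1 numbered 133 higher and 261 lower with a 50th percentile filter, 1249 and 1669 at a threshold of 0.58, and 34 and 109 at 1.5, which follows from fewer genes or another threshold. Genes at least 1 below the other lines numbered 132 with the 50th percentile filter. Leaving out 1 other line gave 177 to 192 genes above and 320 to 330 below, with 177 without C4-2B, 181 without PC3 and 192 without DU145. List medians moved as follows, and the cause was not tested: respiratory chain to 0.159 (median centring) and 0.113 (mean of probe sets), p53 targets to -0.0474 (loess), NF-kB to 0.173, mesenchymal to -0.0746 and neuroendocrine to 0.12 (no filter), neuroendocrine to 0.275 and Wnt antagonists to -0.324 (50th percentile), and, with the filter on the VCaP mean, androgen-regulated to -0.312, mesenchymal to -0.243 and line identity to -0.0367, which reversed its sign. In 428 genes with a further probe set above the filter level, the VCaP differences of both probe sets had a Pearson r of 0.30 across genes, and of 14 past 1 by the brighter set 8 had the same sign by the other and 2 were past 1 by both.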

Other observations

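Some gene families outside the lists were examined after their values were seen, so their counts are descriptions. Metallothioneins are small proteins that bind zinc and copper, and the family, matched by symbol, also holds pseudogenes such as MT1L. In VCaP 11 of its 14 members lay above 0 (49.7% of all genes). The 4 higher by 1 or more (1.29% of all genes) were MT1L, MT1E, MT1CP and MT2A, and the median was 0.62. MT2A read 7.47 with DNAPK siRNA and 6.13 with siNTC (1.35), MT1E 5.78 with DNAPK siRNA and 4.05 with siNTC (1.74), and MT1X 8.58 with DNAPK siRNA and 7.64 with siNTC (0.94). These genes are near-identical copies whose probes may not separate them. Histone genes, which make the proteins that package DNA, lay above 0 in 3 of 18 members, against 49.7% of all genes. Their median was -0.47 in VCaP and -0.06 to 0.23 in the other lines. H2AC14, at 5.20 with DNAPK siRNA and 7.48 with siNTC (-2.28), was the one past 1, against 2.42% of all genes lower. H2BC11 had -0.96 and H2AC21 -0.77. All 11 genes of the COPII coat, which forms the vesicles that leave the ER, lay above 0 (49.7% of all genes). Their median was 0.30, and SEC24D alone was past 1 (1.29% of all genes higher). SEC23A read 8.26 with DNAPK siRNA and 7.58 with siNTC (0.68), and SAR1B 6.58 with DNAPK siRNA and 5.96 with siNTC (0.62). The medians of these 3 families kept their direction under median centring and cyclic loess.

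Small nucleolar RNA genes, which guide the modification of ribosomal RNA, had 15 of 143 lower by 1 or more and 0 higher, against 2.42% and 1.29% of all genes, with a median of -0.17. SNORA22 read 6.87 with DNAPK siRNA and 8.94 with siNTC (-2.07). MicroRNA genes had wider differences than protein-coding genes, with an SD of 0.629 against 0.446 in VCaP, and 17 of 441 were higher and 25 lower by 1 or more, against 1.29% and 2.42% of all genes. In the other lines the SD of microRNA genes was 0.386 to 0.492. Of 15154 probe sets with no gene or several genes, above the same filter level, 679 were higher (4.48%) and 938 lower (6.19%) by 1 or more in VCaP.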
